A study of Mus musculus with 44 samples.

Results

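At postnatal day 21 (P21), how far the response of the mouse cochlear nucleus to loss of its ear still held after a second day was read from 12 of the 44 arrays of the study, all those of P21 taken 24 or 48 h after surgery. One cochlea was removed from each mouse. The nucleus on the operated side is called deafferented here, and the nucleus on the opposite side of operated mice served as its control, so that mice without surgery are not among the groups. The 4 groups were P21 24 h control, P21 24 h deafferented, P21 48 h control and P21 48 h deafferented, with 3 arrays each. Per the design text, each replicate was RNA from its own pool of tissue, so the p-values measure the spread between pools. This spread was estimated over all 44 arrays of the study and not over the 12 alone. The strain and the number of mice in a pool are not given in the sources used here. In the text an effect is the log2 level of the deafferented nucleus minus that of the control at one time, and the quantity tested is the effect at 48 h minus the effect at 24 h.

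Auditory nerve fibres end in the cochlear nucleus, and removal of the cochlea destroys or cuts off the ganglion neurons that send them. The degenerating endings lie among neurons, astrocytes and microglia. Astrocytes near injured tissue typically switch on intermediate filaments, protease inhibitors, receptors and secreted signals within hours to days, a state called reactive. Microglia, the resident macrophages of the brain, respond with lysosomal proteins, Fc and pattern recognition receptors and complement, which mark and clear debris. Injury transcription factors of the Jun and Atf families and proteins of the growing cytoskeleton are further known parts of such a response.

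Each array gave a log2 level for 22626 probe sets, and 15323 with a level above log2 5 in at least 2 of all 44 arrays were tested. Levels below log2 5 are called dim. The 12 arrays had medians between 5.963 and 6.052 and correlated with the other arrays of their group with a mean r between 0.9677 and 0.9888. The third arrays of both 48 h groups stood apart from the rest on the second principal component, which held 21.6% of the variance, and had the lowest mean correlations within a group. Of 25 listed markers of cochlear nucleus and hindbrain neurons, 18 passed this filter on level, and 15 to 17 had group means above the dim limit. The mean level over the 18 was between 8.51 and 9.17 on every array, and that over 17 kept astrocyte markers between 10.27 and 10.51. Kept markers of cerebellar granule and Purkinje cells had means of 8.53 to 9.26, and those of Schwann cells and peripheral nerve 7.86 to 8.41.

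Most of what was altered 24 h after removal was smaller at 48 h, and the effects called faded below were all increases, though not in every alternative fit. With limma and Benjamini-Hochberg adjustment, 124 probe sets were called at 24 h (0.809% of those tested), 97 of them higher (0.633%) and 27 lower (0.176%) in the deafferented nucleus, and 54 at 48 h (0.352%), 39 higher (0.255%) and 15 lower (0.0979%). Of the 124, 106 kept their sign at 48 h and 107 were smaller in size. Of the 54, 53 had the same sign at 24 h and 42 were larger at 48 h. Values chosen for being high at one time tend to be smaller at another, so these counts are a description.

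The change of effect itself was called for 17 probe sets of 15 genes, 0.111% of those tested: 15 had a lower effect at 48 h (0.0979%) and 2 a higher one (0.0131%). At an unadjusted p under 0.05 there were 329. With same-numbered nuclei treated as pairs, the call was made for 28, among them all 17, and the counts at 24 and 48 h were 249 and 104. The count of 17 was 4 without the second arrays of 24 h on both sides, 10 without the third arrays of 24 h and 8 without the second arrays of 48 h, and it was 6 with only the 12 arrays in the fit. The 24 h count of 124 was 71 without control array 1, 60 without deafferented array 2, and 72, 47 and 73 without arrays 1, 2 or 3 of both sides. The 48 h count of 54 was 35 without control array 2, 34 without control array 3, 26 without deafferented array 1, and 14, 31 and 16 without arrays 1, 2 or 3 of both sides.

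Probe sets fell into 3 classes by these tests. An effect is called faded where the 24 h effect was called and the change of effect was called toward 0, persistent where both effects were called with the same sign and the change was not called, and later where the 48 h effect was called and the change was called away from 0. There were 15 faded probe sets (13 genes, all increases), 28 persistent ones (21 increases and 7 decreases, 24 genes) and 2 later ones (2 genes, both increases), which are 0.0979%, 0.183% and 0.0131% of those tested. A further 81 were called at 24 h and 24 at 48 h with neither the other effect nor the change called, and these are not assigned. All 28 probe sets called at both times had the same sign at both.

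**Figure D1:**
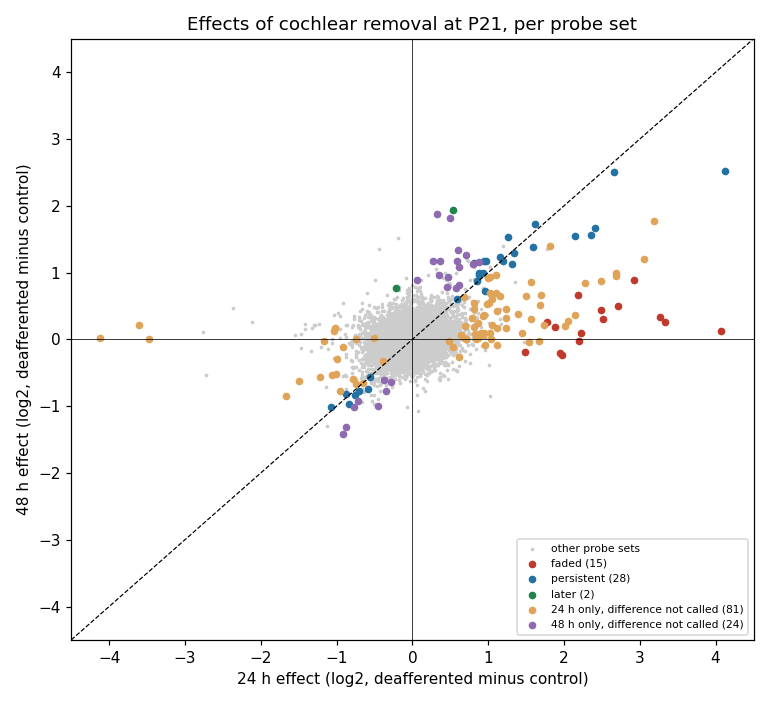
Log2 effect at 48 h (vertical axis) against log2 effect at 24 h (horizontal axis) for each of the 15323 probe sets tested, with the diagonal of equal effects dashed; colours give the class. The 15 faded probe sets lie far to the right and near 0 on the vertical axis, the 28 persistent ones lie near the diagonal, and the 2 later ones lie above it.

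Several faded genes act at the cell surface. Cd44, the receptor for the matrix polymer hyaluronan, read 4.26, 3.74 and 2.88 on the 24 h control arrays and 6.8, 7.4 and 6.66 on the deafferented ones, and at 48 h 2.92, 2.77 and 2.96 against 3.5, 2.96 and 2.99. The groups were far apart at 24 h and overlapped at 48 h, and all 6 levels of the second day were dim. Its effect was 3.33 at 24 h (SE 0.279) and 0.26 at 48 h (SE 0.279), a change of -3.07 (SE 0.394, adjusted p = 2.76e-05 by limma). A second Cd44 probe set, with a higher mean level over all arrays, kept more of its effect, 2.69 at 24 h and 1.00 at 48 h, and its change of -1.69 missed the threshold (adjusted p = 0.062 by limma). Because the arrays measured whole tissue, fewer cells of one type and less RNA per cell cannot be told apart in this or any later result.

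Tgm1 encodes a transglutaminase, an enzyme that cross-links proteins and is best known from skin. It read 3.1, 2.95 and 3.06 on the 24 h control arrays and 6, 6.58 and 6.33 on the deafferented ones, then 3.04, 2.98 and 3.12 against 3.84, 3.03 and 3.24 at 48 h. The sides were far apart on the first day and overlapped on the second, when the first array was the highest. The effect went from 3.26 (SE 0.207) to 0.33, a change of -2.94 (SE 0.293, adjusted p = 2.02e-07 by limma). Tm4sf1, a membrane protein of the tetraspanin-like L6 family, lay at much brighter levels: 8.28, 8.18 and 8.17 against 9.68, 10.47 and 10.1 at 24 h, and 8.17, 8.34 and 8.64 against 8.8, 8.06 and 8.88 at 48 h. Its effect of 1.88 was 0.19 a day later (change -1.69, adjusted p = 0.0136 by limma).

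The Tgm1 promoter is shown because it was the one promoter of a faded gene that held a match to the motif of the STAT factors, which act downstream of cytokine receptors. The window is the 250 bases before the RefSeq start of Tgm1 on the minus strand of chromosome 14 (GRCm38.p6, chr14:55713493-55713742), 5′ to 3′ in the direction of transcription, with the 2 matches to TTCNNNGAA in capitals.
Tgm1: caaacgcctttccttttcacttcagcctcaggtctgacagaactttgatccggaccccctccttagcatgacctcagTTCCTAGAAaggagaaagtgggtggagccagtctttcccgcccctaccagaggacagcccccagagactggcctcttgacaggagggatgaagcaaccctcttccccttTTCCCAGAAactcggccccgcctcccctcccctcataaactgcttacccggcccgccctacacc
Counted from the start, the matches lie at -173 to -165 and -64 to -56. RefSeq promoter windows (250 bases before to 50 after each start) were found for 8 of the 13 faded genes. In every window only the 250 bases before the start were searched for motifs. Of the 8 genes, 1 held this motif on either strand, against 7.02% of all 32851 windows. The motif of the AP-1 factors, TGANTCA, was in 0 of the 8 against 6.75% of all windows, and the heat shock element in 0 of the 8 against 0.466%. A match is a string of letters and not a shown site, and its absence from these windows says nothing of the factor.

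Hbegf, a membrane-anchored growth factor of the EGF family, read 7.62, 7.16 and 7.17 on the 24 h control arrays and 9.03, 9.63 and 9.22 on the deafferented ones, and 7.07, 7.06 and 7.64 against 6.82, 6.96 and 7.31 at 48 h. All 3 pairs of nuclei were higher on the deafferented side at 24 h, by 1.42, 2.47 and 2.05, and all 3 were lower at 48 h, by differences of -0.25, -0.1 and -0.33. The change was -2.21 (SE 0.315, adjusted p = 0.000186 by limma), and a second Hbegf probe set gave -2.16. Clcf1, a cytokine of the CNTF family, had an effect of 1.48 at 24 h and -0.19 at 48 h, with deafferented levels of 6.76, 7.27 and 7.25 on the first day and 5.37, 5.34 and 5.32 on the second (change -1.67, adjusted p = 0.00505 by limma). S1pr3, a receptor for the lipid signal sphingosine 1-phosphate, went from 4.98, 6.36 and 5.78 in the deafferented nucleus to 3.6, 3.27 and 3.26, close to its controls of both days (3.14 to 3.75). Its change was -2.13 (SE 0.337, adjusted p = 0.00109 by limma).

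Hmox1, the enzyme that opens the heme ring, read 8.05, 8.37 and 8.04 in the deafferented nucleus at 24 h against 5.61, 5.77 and 5.5 in the control, with closely similar pair differences of 2.43, 2.6 and 2.54. At 48 h it read 5.96, 5.91 and 6.43 against 5.49, 5.63 and 6.25, so the deafferented side was still the higher in every pair, but by 0.47, 0.28 and 0.18 only. The change was -2.21 (SE 0.403, adjusted p = 0.00577 by limma). Hspb1, a small heat shock protein that also binds actin, went from 10.35, 11.07 and 9.6 to 8.71, 7.76 and 8.1 in the deafferented nucleus, over controls of 7.56 to 8.07. Its effect fell from 2.49 to 0.44 (change -2.05, adjusted p = 0.00553 by limma) and, on a second probe set, from 1.78 to 0.26 (change -1.52, adjusted p = 0.0257 by limma). Of 18 kept heat shock and chaperone genes, 1, Hspb1, was called toward a lower effect (0.124% of all genes were). Without the third arrays of 48 h the count was 0 (7 of all 8886 genes were called so).

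Ptx3, a secreted pattern recognition protein, stood at 6.25, 7.47 and 6.92 in the deafferented nucleus at 24 h and at 5.24, 3.71 and 4.55 at 48 h, with controls of 3.82 to 4.22 (change -2.21, adjusted p = 0.0132 by limma). On the second day 1 of its 3 pairs still differed by 1.42 while another gave -0.25. Tubb6, a beta-tubulin isotype, read 6.2, 6.87 and 6.03 and then 4.53, 4.07 and 5.11 in the deafferented nucleus. Its 48 h controls were 4.66, 4.12 and 5.02, which leaves an effect of -0.03 (change -2.23, SE 0.398, adjusted p = 0.00553 by limma). Fcgr2b, the inhibitory Fc receptor of macrophages and B cells, was called faded on one probe set (2.93 to 0.89, change -2.03) and persistent on another (2.41 to 1.67, change -0.74, adjusted p = 1 by limma). Its other 2 probe sets gave changes of -0.73 and -0.34, neither called, so that the fate of Fcgr2b depends on the probe set read.

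Lalba, the milk protein alpha-lactalbumin, had levels above the dim limit in the 24 h deafferented nucleus alone. Its levels at 24 h were 2.49, 2.35 and 2.37 in the control and 6.42, 6.48 and 6.53 in the deafferented nucleus, and at 48 h 2.26, 2.37 and 2.49 against 2.26, 2.65 and 2.59. The 3 pairs at 24 h differed by 3.93, 4.13 and 4.16, and those at 48 h by 0 to 0.28. The fitted change was -3.95 (SE 0.415, adjusted p = 3.95e-07 by limma). The low levels lie near the 5th percentile of these arrays (2.149 to 2.445), so the size of this change is not a measured ratio. Lpl, the lipoprotein lipase, was the remaining faded gene and lies outside the rule for naming genes, so it was chosen after its values were seen. It went from 8.87, 9.23 and 9.17 to 8.27, 7.92 and 7.99 in the deafferented nucleus, and unlike most of the class its sides still did not overlap at 48 h (effect 2.18, then 0.66, change -1.52, adjusted p = 0.0136 by limma).

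In all 15 faded probe sets, each of the 3 pair differences at 48 h was below each of those at 24 h, a pattern found in 6.17% of all probe sets tested; the class was chosen on these values, so the count is a description. At 48 h the 2 sides overlapped for 13 of the 15, and the 48 h effects ran from -0.23 to 0.89 after 24 h effects of 1.48 to 4.07. For 7 of the 15 the 24 h control mean was dim, and 6 (of Lalba, Ptx3, Tgm1, Fcgr2b, Cd44 and S1pr3) passed the filter through the P21 24 h deafferented arrays, with fewer than 2 other arrays above log2 5. The effects of these 6 start from dim levels, so their sizes are fitted values and not measured ratios. Deafferented array 2 was the highest of the 24 h arrays for 13 of the 15, against 34.8% of all probe sets, and what that array contributed beyond the other 2 was not tested. The class numbered 4 without the second arrays of 24 h on both sides, 7 without the second arrays of 48 h, 9 without the third arrays of 48 h and 26 with paired nuclei, which included the same 15. Some alternatives held faded decreases: 3 of 22 without 24 h deafferented array 1 and 3 of 18 without the first arrays of 24 h on both sides. With array weights there were 3 of 33. Of the alternatives tried, the change lost its call in 14 of 28 for the second Hspb1 probe set, 11 for Ptx3, 10 for Tm4sf1, 10 for Lpl, 8 for Fcgr2b, 5 for the other Hspb1 probe set, 4 for Clcf1, 3 for Hmox1, 3 for the second Hbegf probe set and 2 for Tubb6, and in 1 of 23 for S1pr3. Single arrays ended it for Ptx3, Tm4sf1, Lpl and the second Hspb1 probe set: each was lost without 24 h deafferented array 2 (adjusted p = 0.12, 0.12, 0.0864 and 0.245 by limma), without 48 h control array 3 and without 48 h deafferented array 2. Lpl was also lost without 24 h control array 1 or 24 h deafferented array 3, Tm4sf1 without 24 h control array 2, and the second Hspb1 probe set without 24 h control array 2, 24 h control array 3 or 48 h control array 2. The 11 added by pairing were second probe sets of Cd44 and Clcf1, probe sets of Smim3, Col5a3, S100a16, Synpo, Dusp6, Socs3, Fabp7 and of Lilrb4a with Lilr4b, and 1 faded decrease, Sema3b (-0.98 at 24 h and 0.40 at 48 h).

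**Figure D2:**
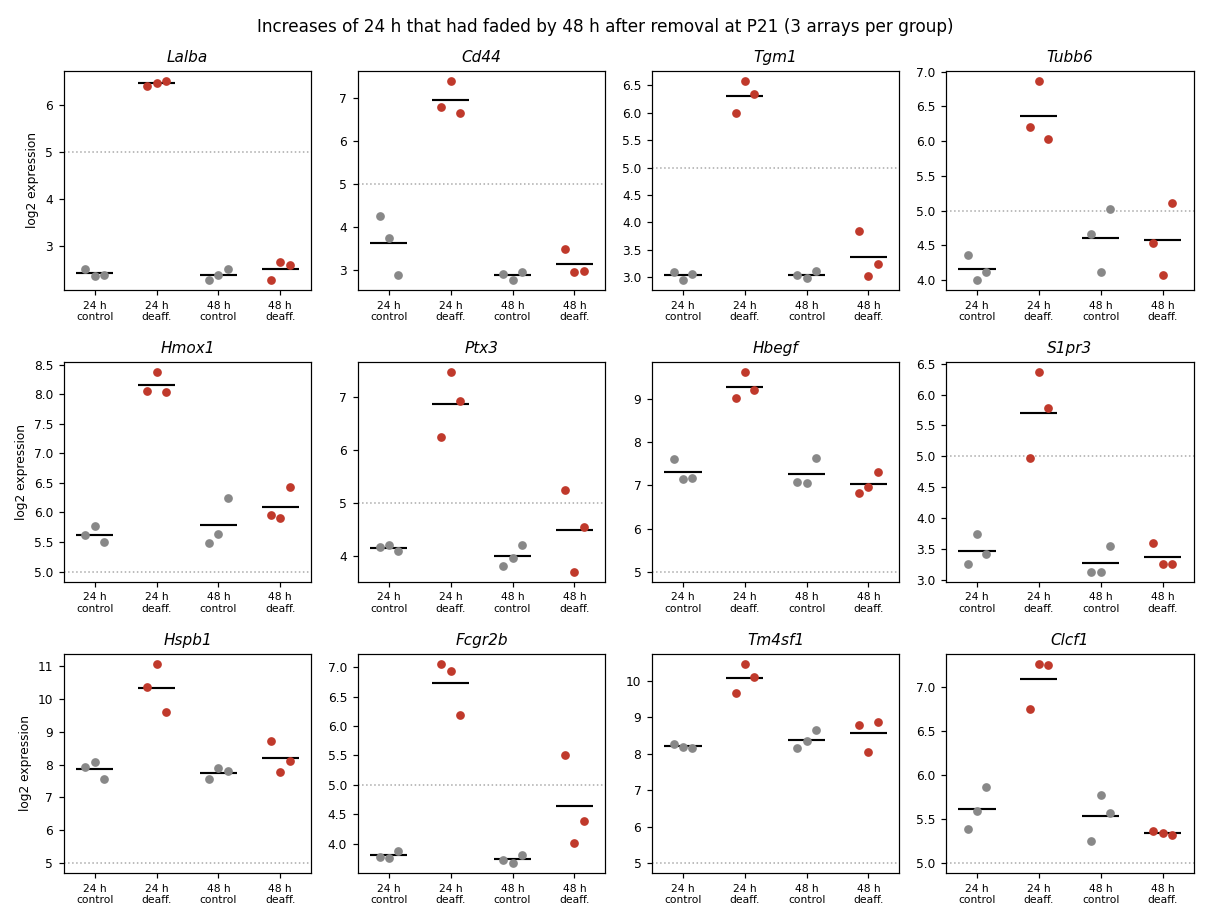
Log2 expression of the 12 named faded genes on each of the 12 arrays (3 per group; grey control, red deafferented), with group means as bars and the dim limit of log2 5 dotted. In each panel the 24 h deafferented arrays lie above the 24 h controls, and the 48 h deafferented arrays lie below those of 24 h.

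Just outside the class lay genes whose 24 h increase was called and whose change missed the threshold. The second Cd44 probe set (adjusted p = 0.062 by limma), a probe set shared by Lilrb4a and Lilr4b (0.0689) and Wwtr1 (0.146) were the nearest, while the second Hspb1 probe set (0.0257) lay just inside. Several of the largest 24 h increases are in this group. Lgals3, a galectin of activated macrophages and glia, had an effect of 3.06 at 24 h and 1.21 at 48 h (change -1.85, adjusted p = 0.759 by limma). Serpina3n, a protease inhibitor of reactive astrocytes, went from 3.19 to 1.78, Socs3, an inhibitor of cytokine signalling, from 2.68 to 0.95, and Osmr, a receptor for oncostatin M, from 2.14 to 0.36 (change -1.78, adjusted p = 0.181 by limma). In the unpaired fit none of these 4 had a 48 h effect or a change that was called, so neither fading nor persistence is shown for them there. With paired nuclei Socs3 was faded (adjusted p of the change 0.0227 by limma) and Serpina3n was called at both times (48 h adjusted p = 0.0424).

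Several persistent increases were genes of macrophages and microglia. Cd68, a lysosomal protein of macrophages, read 4.87, 5.44 and 5.33 on the 24 h control arrays and 7.62, 8.33 and 7.67 on the deafferented ones, and at 48 h 5.46, 5.7 and 4.06 against 8.42, 7.04 and 7.31. The sides did not overlap on either day. Its effect was 2.66 (SE 0.448) and then 2.51 (SE 0.448), and the change of -0.15 had a 95% interval from -1.44 to 1.14. Mpeg1, a pore-forming protein of macrophages, had effects of 1.62 and 1.73, with deafferented levels of 7.58, 7.79 and 7.38 and then 8.79, 8.05 and 8.39. Its interval ran from -0.68 to 0.90. Clec7a, the beta-glucan receptor Dectin, went from 2.15 to 1.55, with 48 h pair differences of 2.62, 0.96 and 1.07. Its controls of both days were dim (3.5 to 4.44).

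Of the 8 persistent increases named by size, Timp1 had the widest pair differences on the second day. This inhibitor of matrix proteases, an early product of reactive astrocytes, read 8.54, 9.22 and 7.96 in the deafferented nucleus at 24 h and 8.58, 5.25 and 6.91 at 48 h, over controls of 4.32 to 4.62. One pair thus kept a difference of 4.26, while the others had 0.86 and 2.42. The effects were 4.12 (SE 0.485) and 2.52 over dim controls, and the interval of the change, -2.99 to -0.20, lies below 0 although its adjusted p was 1. Atf3, the injury transcription factor, had 48 h pair differences of 3.04, 1.14 and 0.5 and effects of 2.36 and 1.56 over dim controls (4.2 to 4.53). Gadd45a, a growth arrest protein induced by stress, had the narrowest spread of these 8 at 48 h: its pairs differed by 1.58, 1.44 and 1.76 at 24 h and by 1.43, 1.38 and 1.32 at 48 h. Vim, the intermediate filament vimentin, had effects of 1.34 and 1.3. Without 48 h deafferented array 1 the 48 h effect was 1.68 for Timp1 (adjusted p = 0.197 by limma), 0.92 for Atf3 (0.0773), 2.1 for Cd68 (0.0674) and 1.06 for Vim (0.32), so none of these 4 was called persistent without it, and the Atf3 change of -1.43 was then called (0.0222). Cd68 also lost its 48 h call without 48 h control array 3 (0.0618), and Vim lost a call without any of 5 other single arrays. Gadd45a kept both calls in all 28 alternatives.

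The Cd68 promoter is shown because it held 2 matches to the AP-1 motif TGANTCA, the binding sequence of Jun and Fos factors, in capitals here. The 250 bases before the RefSeq start lie on the minus strand of chromosome 11 (GRCm38.p6, chr11:69666171-69666420) and are written 5′ to 3′ in the direction of transcription.
Cd68: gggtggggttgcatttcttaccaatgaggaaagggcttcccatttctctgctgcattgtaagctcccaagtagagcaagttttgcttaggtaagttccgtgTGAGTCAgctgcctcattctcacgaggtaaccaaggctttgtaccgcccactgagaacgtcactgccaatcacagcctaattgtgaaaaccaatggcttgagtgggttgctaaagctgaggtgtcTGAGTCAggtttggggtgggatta
Counted from the start, the matches lie at -149 to -143 and -24 to -18. Windows were found for 21 of the 24 persistent genes, and 2 of the 21, Cd68 and Cbarp, held this motif, against 6.75% of all windows. The Jun gene itself was raised at both times on one probe set (0.96 at 24 h and 0.73 at 48 h, persistent) and on a second one at 24 h only (1.16, then 0.65 with an adjusted p of 0.13 by limma, and 0.0444 with paired nuclei). Fos had effects of -1.67 and -0.85. A link of either factor to Cd68 or the other persistent genes was not tested. The short CCAAT motif was in 15 of the 26 windows of these 21 genes and in 2 of the 9 windows of the 8 faded genes, against 33.8% of all windows.

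The persistent decreases were smaller, and the named ones touch signalling and transport. Tfrc, the transferrin receptor through which cells take up iron, read 11.29, 10.9 and 10.93 in the control and 10.37, 10.01 and 10.11 in the deafferented nucleus at 24 h, and 10.76, 10.7 and 10.99 against 9.88, 10.05 and 10.07 at 48 h. Its effect was -0.88 and then -0.82, and the interval of the change ran from -0.37 to 0.49. Arhgap24, an activator of the GTPase of Rac, had effects of -1.08 and -1.02, and Stk24, a kinase of the Ste20 family, -0.83 and -0.97. Rgs4, which ends signalling through G proteins, had -0.76 and -0.83, and Fam20c, a kinase of secreted proteins, -0.70 and -0.78. In these 5 the deafferented arrays lay below the controls on both days without overlap. Each of the 5 lost a call without some single array. Stk24 lost its 24 h call without 24 h control array 1, 2 or 3 or 24 h deafferented array 1. Of 28 alternatives, the 24 h and 48 h calls were lost in 7 and 5 for Stk24 and 4 and 5 for Rgs4. They were lost in 3 and 8 for Arhgap24, 4 and 3 for Fam20c and 0 and 3 for Tfrc. Kcnab1, a subunit of voltage-gated potassium channels and 1 of the 7 decreases, had -0.59 and -0.74.

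For a persistent effect the test shows no more than that a change was not called. The changes of the 28 probe sets lay between -1.60 and 0.34, with 95% intervals that reached a median of 0.61 to either side, and 23 of the 28 intervals lay within 1 log2 unit of 0. The pair differences of the 2 days overlapped for 26 of the 28. Deafferented array 1 was the highest of the 48 h arrays for 19 of the 21 persistent increases, against 37.6% of all probe sets. Without that array the class numbered 14 (8 increases and 6 decreases), and the 48 h increases called numbered 13 instead of 39. The class was 17 without 24 h control array 1, 17 without 24 h deafferented array 2, 17 without 48 h control array 3, and 15, 13 and 17 (24 h) or 9, 18 and 10 (48 h) without arrays 1, 2 or 3 of both sides. With paired nuclei it was 56 and included the same 28.

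**Figure D3:**
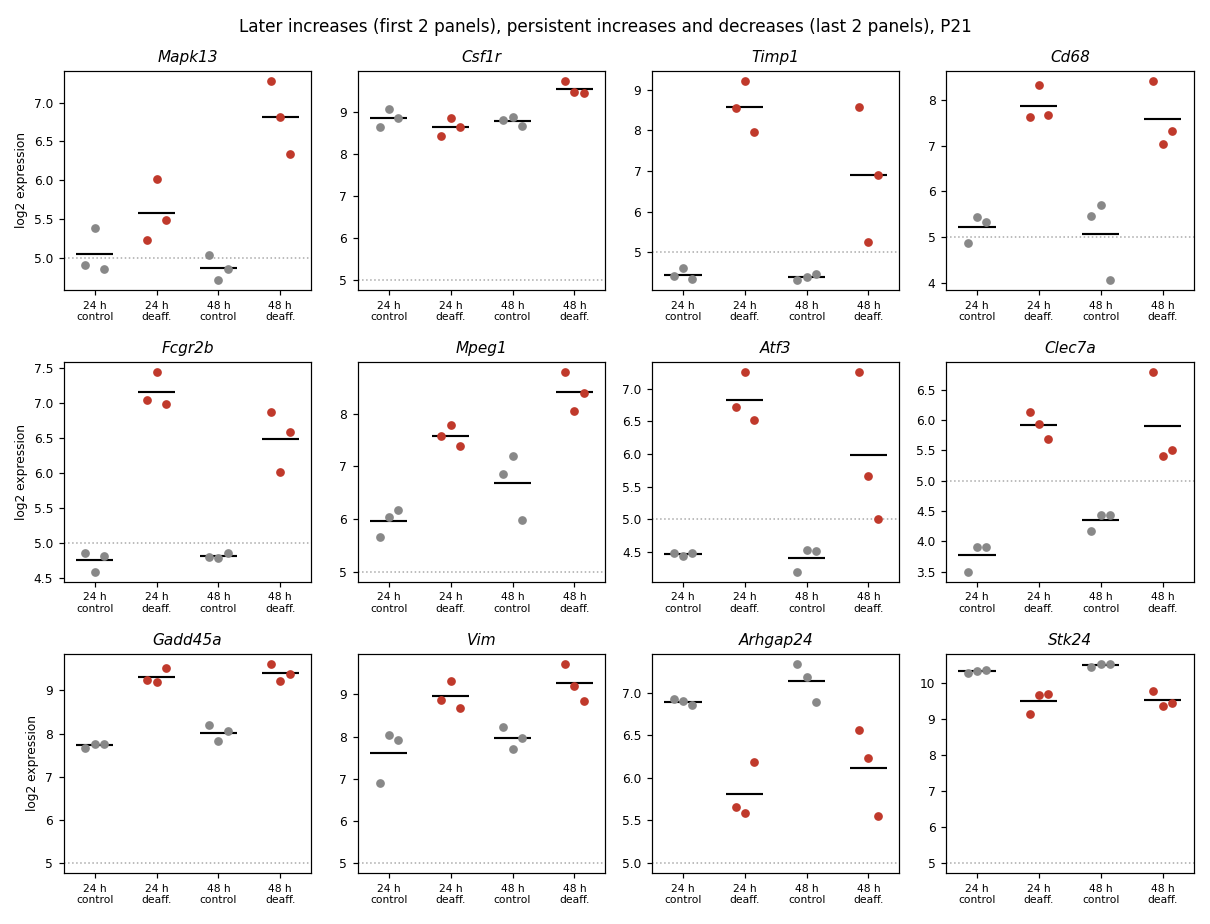
Log2 expression on each of the 12 arrays (3 per group; grey control, red deafferented) of the 2 later genes, 8 persistent increases and 2 persistent decreases, with group means as bars and the dim limit of log2 5 dotted. Mapk13 and Csf1r separate from their controls at 48 h only, while the sides of the other 10 are apart at both times.

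A later increase was called for Mapk13 and Csf1r. Mapk13, a stress-activated kinase of the p38 family, read 4.91, 5.39 and 4.86 against 5.24, 6.02 and 5.49 at 24 h and 5.04, 4.72 and 4.86 against 7.28, 6.81 and 6.34 at 48 h. The sides overlapped on the first day and were apart on the second. Its effect was 0.53 and then 1.93, a change of 1.4 (SE 0.292, adjusted p = 0.029 by limma). Csf1r, the receptor through which microglia receive their survival signal, was slightly lower in all 3 pairs at 24 h (-0.2, -0.22 and -0.22) and higher in all 3 at 48 h (0.93, 0.59 and 0.79), a change of 0.98 (SE 0.187, adjusted p = 0.0112 by limma). A second Csf1r probe set changed by 0.95 with an adjusted p of 0.787, and the remaining one by 0.35. Neither gene passed without 24 h control array 2, without 48 h control array 3 or without 48 h deafferented array 1. Mapk13 was also lost without 24 h deafferented array 1 or 3, 48 h control array 2 or 48 h deafferented array 2. Of the 28 alternatives tried, the change lost its call in 16 for Mapk13 and in 10 for Csf1r.

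Several other genes were called at 48 h without a call at 24 h, but their changes were not called. Sprr1a, a protein induced in regenerating neurons, stood at 4.85, 4.02 and 4 in the deafferented nucleus at 24 h and at 6.1, 6 and 4.98 at 48 h, with effects of 0.33 and 1.88 (change 1.54, adjusted p = 0.245 by limma). Ecel1, a peptidase-like protein of injured neurons, had effects of 0.50 and 1.82 (change 1.31, adjusted p = 0.759 by limma). Fcgr3, an activating Fc receptor, had 0.27 and 1.17, Aif1, the microglial calcium-binding protein, 0.06 and 0.89, and C1qa, a chain of the first complement component, 0.59 and 1.17. Of the decreases called at 48 h alone in the unpaired fit, Tnnt1 had -0.91 and -1.42, Inhbb, an activin subunit, -0.88 and -1.31, and Cd24a -0.46 and -1. With paired nuclei Tnnt1 and Inhbb were called at 24 h as well (adjusted p = 0.0319 for each by limma). Deafferented array 1 was the highest of the 48 h arrays for all 16 probe sets of this kind that were higher in the deafferented nucleus, against 37.6% of all.

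Gene lists written from textbook knowledge were read at both times. They were chosen with earlier results of these data known, so their counts are a description. Of 37 listed genes of reactive astrocytes, 28 were kept, and 14 were called higher at 24 h (0.765% of all 8886 genes were), 2 at 48 h (0.281%) and 6 in the change of effect, all toward a lower effect (0.124%; 0.0113% of all genes were called toward a higher one). Their median effect was 1.22 at 24 h and 0.26 at 48 h, and the median change was -0.51 against 0.02 over all genes. The 6 were Tgm1, Ptx3, S1pr3, Tm4sf1, Clcf1 and Hspb1, which are also faded genes above, so the list is no second line of evidence. The 2 called at 48 h were Timp1 and Vim. Of the 28, 3 (Tgm1, Ptx3 and S1pr3) passed the filter through the 24 h deafferented arrays, where they are high, and had to differ. Among the other members 11 were called at 24 h and 3 in the change. Without 48 h deafferented array 1 the counts over the 28 were 14, 0 and 7, and without the third arrays of 48 h they were 14, 1 and 3. With paired nuclei they were 17, 7 and 8. Over all 8886 genes the same counts were 70, 8 and 13 without 48 h deafferented array 1. They were 73, 9 and 7 without the third arrays of 48 h, and 120, 48 and 18 with paired nuclei.

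Gfap, the classical filament of reactive astrocytes, did not follow this pattern. It read 11.04, 11.14 and 10.81 against 12.56, 12.28 and 12.16 at 24 h and 10.12, 10.07 and 8.58 against 11.3, 11.35 and 10.08 at 48 h. The deafferented side was higher in all 6 pairs, by 1.14 to 1.52, and the levels of both nuclei were lower on the second day, most of all on the third arrays, without a call between the days. The effects of 1.34 and 1.32 were not called in the unpaired fit (adjusted p = 0.559 and 1 by limma) and were both called with paired nuclei. Homeostatic astrocyte markers, such as transporters and gap junction genes, had medians of -0.09 and 0.13 over 17 genes. None was called at either time in the unpaired fit. With paired nuclei 1 was called lower at 24 h (52 of all 8886 genes were).

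Microglial markers were called at both times. Of 24 listed, 18 were kept: 3 were called higher at 24 h (0.765% of all genes) and 8 at 48 h (0.281%), with medians of 0.43 and 0.93. Of the 18, 17 had a larger effect at 48 h (4725 of all 8886 genes did), although none of the 18 changes was called on the probe set that stood for its gene. Those called at both times were Fcrls (1.19 and 1.18), Tyrobp (0.97 and 1.18) and Ly86 (1.26 and 1.54). Those called at 48 h alone were C1qa, C1qb, C1qc, Laptm5 and Aif1. Without 48 h deafferented array 1 the counts were 4 at 24 h and 2 at 48 h, with a 48 h median of 0.77, and without the third arrays of 48 h they were 3 and 2, with a median of 0.94, so the order of the counts rests on these arrays. With paired nuclei they were 3 and 12. Over all 8886 genes, the increases called at 24 and 48 h numbered 68 and 25 in the unpaired fit of all arrays. They numbered 70 and 8 without 48 h deafferented array 1 and 73 and 9 without the third arrays of 48 h. Without 24 h deafferented array 1 they numbered 55 and 24, and with paired nuclei 120 and 48. Of 19 kept genes of activated microglia and macrophages, 5 were called higher at 24 h (0.765% of all genes) and 4 at 48 h (0.281%). Lpl was the one called in the change. The counts at 24 and 48 h were 5 and 1 without 48 h deafferented array 1, 5 and 1 without the third arrays of 48 h, when Lpl was not called in the change either, 3 and 4 without 24 h deafferented array 1, and 8 and 6 with paired nuclei.

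Cytokines, chemokines and their receptors were read at both times. Of 39 listed genes 22 were kept, and 7 were called higher at 24 h (0.765% of all genes) and 0 at 48 h (0.281%) in the limma fit. The count at 48 h was 0 with paired nuclei too (48 of all 8886 genes were higher then). One of the 7, Ccl12, passed the filter through the 24 h deafferented arrays. The 7 were Osmr, Clcf1, the chemokines Ccl12 (2.49, then 0.87), Ccl3 (1.54, then -0.04) and Ccl9 (0.92, then 0.06), the receptor Tnfrsf1a (0.68, then 0.02) and the alarmin Il33 (1.05, then 0.60). Of the 7 changes, that of Clcf1 was called. In the axon injury and growth list, 26 of 32 genes were kept, of which 6 were called higher at 24 h (0.765% of all genes) and 4 at 48 h (0.281%). Atf3 and Gadd45a were called at both times, Tubb6, Hspb1, Plaur and Jun at 24 h, and Ecel1 and Sprr1a at 48 h. Gap43, a protein of growing axon tips, had effects of 1.19 and 1.4 in pairs that were all higher on the deafferented side. Neither was called in the unpaired fit (adjusted p = 0.126 and 0.0734 by limma) and both were with paired nuclei.

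Decreases called on the first day included activity-dependent genes. Fos read 9.98, 10.16 and 10.06 in the control and 8.31, 8.47 and 8.41 in the deafferented nucleus at 24 h, and 9.05, 9.69 and 9.47 against 8.42, 8.94 and 8.3 at 48 h. The sides were apart on both days, with the gap narrower on the second. Its effect was -1.67 (adjusted p = 0.000378 by limma) and then -0.85 (adjusted p = 0.49), and the change of 0.82 was not called. With paired nuclei both effects were called. Nr4a1 went from -1.49 to -0.62 and Dusp1 from -1.01 to -0.52 in the same way, with only the 24 h effects called. Of 22 kept immediate early genes, 3 were called higher (0.765% of all genes were) and 3 lower (0.236%) at 24 h. At 48 h 1, Atf3, was called higher (0.281%) and none lower (0.169%). The 48 h count was 0 without 48 h deafferented array 1, when 8 of all 8886 genes were called higher. With paired nuclei 2 were higher and 1 lower at 48 h, against 48 and 26 of all genes. Cck, a neuropeptide, had effects of -0.95 and -0.78, of which the first was called, and both with paired nuclei. Lists of glutamate receptors, inhibitory synapse genes, synaptic vesicle genes, ribosomal proteins, interferon response genes and the cell cycle had no call in either effect in the unpaired fit. With paired nuclei 2 ribosomal protein genes and 1 cell cycle gene were called higher at 24 h (120 of all 8886 genes were).

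**Figure D4:**
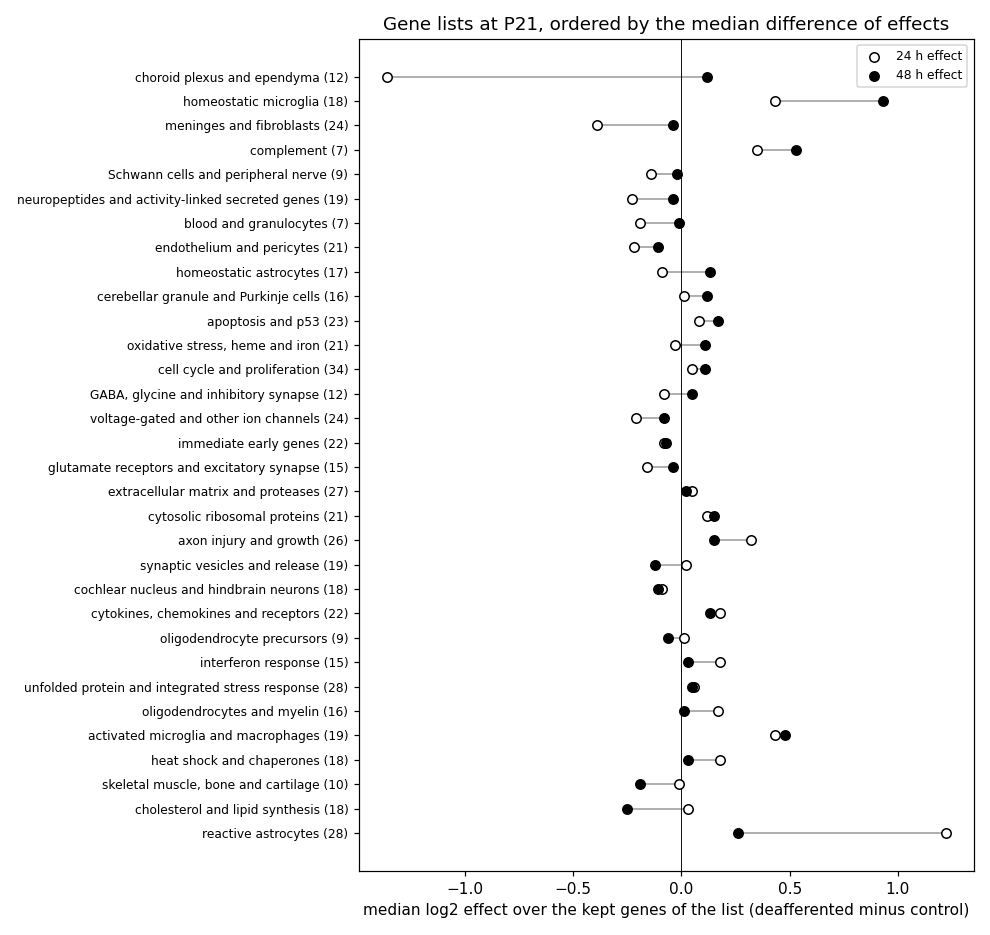
Median log2 effect at 24 h (open circles) and 48 h (filled circles) over the kept genes of each of 32 lists, with the number of kept genes in brackets and lists ordered by their median change. Reactive astrocytes (1.22 to 0.26) and choroid plexus (-1.36 to 0.12) have the longest lines, and microglial markers go from 0.43 to 0.93.

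Markers of other tissue were read in the same way. The 12 kept of 18 listed markers of choroid plexus and ependyma had a median effect of -1.36 at 24 h and 0.12 at 48 h. Of these, 1, Ttr, was called lower at 24 h (0.236% of all genes were). All 12 changes were above 0, and none of the changes was called. Ttr, the transport protein that choroid plexus makes in bulk, read 13.85, 14.38 and 14.72 in the 24 h control and 14.43, 9.22 and 8.9 in the deafferented nucleus, while all 48 h levels were between 14.44 and 14.94. The low values thus came from 2 of the 3 arrays. The 24 h effect of -3.47 was called (adjusted p = 0.0213 by limma), but it lost its call in 10 of 28 alternatives. Other Ttr probe sets were also called at 24 h, with effects of -4.12 and -3.6. The change of 3.47 (SE 1.13) had an adjusted p of 1 by limma. Without 24 h deafferented array 1 it was 5.26 and was called (adjusted p = 0.000214 by limma), the 1 choroid plexus change called then. Over the 12 markers the mean level was 4.89, 4.97 and 6.24 on the 24 h deafferented arrays, 5.83 to 7.38 on the 24 h controls and 7.08 to 8.94 at 48 h. For 24 kept markers of meninges and fibroblasts the median effect was -0.39 and then -0.04, and for 21 of endothelium and pericytes -0.22 and -0.11. The medians of these lists were below 0 on the day on which the faded genes were higher, and their part in the results was not tested.

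**Figure D5:**
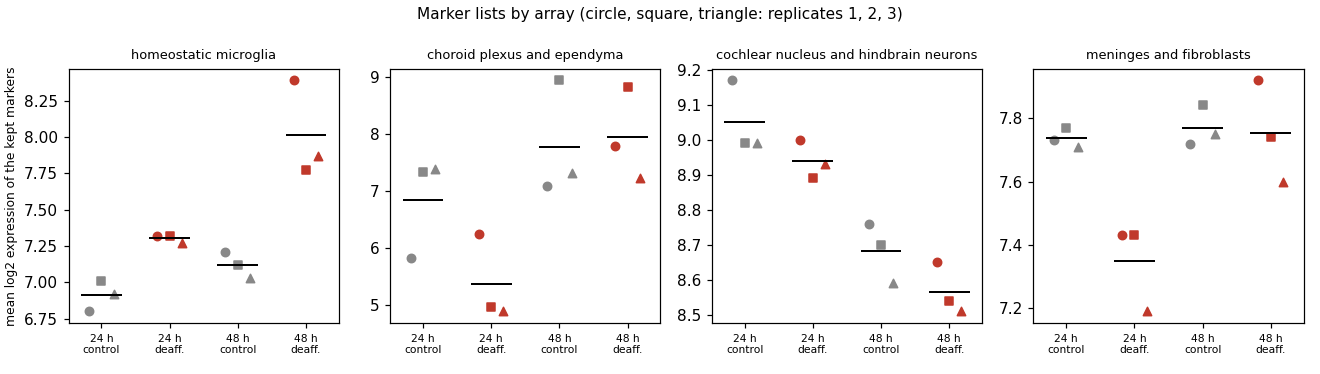
Mean log2 level over the kept markers of 4 lists on each of the 12 arrays (grey control, red deafferented; circle, square and triangle for replicates 1, 2 and 3), with group means as bars. The microglial mean is highest on the first 48 h deafferented array (8.39), the choroid plexus mean is lowest on 2 of the 24 h deafferented arrays (4.89 and 4.97), and the neuronal mean lies between 8.51 and 9.17 throughout.

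Each nucleus was also compared directly between the days. On the first principal component, which held 39.5% of the variance, the 24 h arrays of both sides lay between -40.5 and -12.5. The 48 h arrays of both sides lay between 11.1 and 35.3. What sets the arrays of the days apart was not tested. The deafferented nucleus had 974 probe sets called (6.36% of those tested), 598 higher (3.9%) and 376 lower (2.45%) at 48 h. The control had 223 (1.46%), 127 higher (0.829%) and 96 lower (0.627%). For all 17 probe sets with a called change of effect, the deafferented nucleus differed between the days, by at least 0.91 in size, and the control was called for 0 of the 17, with no control change over 0.74. The 17 were chosen on the difference between these 2 changes, so the counts are a description. Over all probe sets the control was called for 1.46%. The control count itself is unstable: it was 0 without 24 h control array 1 or 48 h control array 1, 1 without 48 h control array 3, 86 without 24 h control array 2 and 570 without 24 h control array 3. The deafferented count of 974 was 315 and 193 without the first or second 24 h array and 411 and 308 without the first or second 48 h array. The largest control differences were in Aplnr, a peptide hormone receptor (2.52, adjusted p = 0.0116 by limma), Dhps (2.01), Rrm2, Lasp1 and Thoc1 among the higher, and in Hipk3 (-2.21), Pglyrp1, Adarb1, Nr1d1, a repressor of the circadian clock (-2.04), and Tbc1d14 among the lower. None of these 10 was called in the effect at either time.

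At the earlier times the faded genes had smaller effects. The class was chosen for its effects at 24 h, so smaller values at other times are a description. Across the 15 probe sets the effect at P21 was between -0.17 and 0.57 at 6 h and between -0.25 and 1.19 at 12 h. Of these, Lpl was already called at 12 h (1.14, adjusted p = 0.0397 by limma), where 4 probe sets were called in all (0.0261%). Gadd45a, among the persistent genes, was called at 12 h too (1.18, adjusted p = 0.0399 by limma).

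The same contrast in mice operated at postnatal day 7 (P7) gave no call in the limma fit, with 1545 probe sets at an unadjusted p under 0.05. The paired fit called 90, but at P7 24 h not all same-numbered nuclei deviated together (correlations of 0.417, -0.00178 and 0.0203), so the numbers were not shown to pair the nuclei there. Across the 15 faded probe sets the P7 effect at 24 h was between -0.36 and 1.82 with a median of 0.38, and its change by 48 h was between -1.92 and 0.51. The test of the difference between the ages was called for 2 of all probe sets (0.0131%), both faded here: Tgm1, whose change was lower at P21 than at P7 by a difference of -2.84 (SE 0.414, adjusted p = 0.00115 by limma), and Lalba (-3.55, SE 0.587, adjusted p = 0.00631). Their P7 effects at 24 h were 0.01 and 0.38. Both passed the filter through the P21 24 h deafferented arrays, and with a filter of log2 6 on 3 arrays the count was 0. Cd44 was the one probe set called at P7 24 h (0.00653%), with an effect of 1.82 and -0.10 a day later, and its change differed between the ages by -1.14 with an adjusted p of 1. For the other faded genes a difference between the ages was not called in the unpaired fit, which does not show that they acted alike. With paired nuclei 4 probe sets were called, among them Tm4sf1 (adjusted p = 0.0169 by limma, against 0.163 unpaired).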

How the data were processed

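Total RNA of the cochlear nucleus was measured on Affymetrix arrays. The authors deposited 1 log2 value for each probe set and array. GCRMA is the method the submitters' processing notes name, without a version. These log2 values were used as deposited, without further normalisation. Probe sets were named through the supplied table of probe sets and genes, updated by gene identifier to the RefSeq table of GRCm38.p6: of 22626 probe sets, 20380 had 1 symbol, 691 several and 1555 none.

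Groups came from the labels. The filter (log2 over 5 on 2 or more arrays) left 15323 probe sets. Lists used 1 of these per gene, the brightest on average (8886 genes). Limma 3.58.1 in R 4.3.3 fitted 1 mean to each of 16 groups over all 44 arrays, with a variance trend (28 residual and 5.27 prior degrees of freedom), two-sided p-values adjusted by Benjamini-Hochberg within a contrast and a threshold of 0.05. The fit was tested on simulated data. No arrays held identical values. Array data have no read depth, and the number of arrays limits the precision.

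The members, gene lists and naming rule were chosen with earlier results of these data known. Named were up to 12 faded, 8 later and 8 persistent increases (5 decreases), 1 probe set per gene, by size, up to 4 members of a list by adjusted p of the change, 5 control differences per direction, the genes called between ages, and Fos, Jun, Atf3, Gadd45a, Timp1, Gfap, Cd68, C1qa, Gap43 and Ttr whatever their values. Other genes named were chosen after their values were seen.

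Same-numbered arrays of the 2 sides deviated together from their group means (lowest correlation 0.158 at P21 24 h and 0.428 at P21 48 h, both over the limit of 0.1), so the numbers were taken to pair the nuclei at these times; the pairing comes from the data and not from a stated design. The limit was not met at P7 24 h (lowest -0.00178) or at 6 h (0.0704 and 0.0642), whose arrays are also paired in that fit. Alternatives were a paired fit (14 residual degrees of freedom), other filters, array subsets, no variance trend, array weights, quantile normalisation and leaving out arrays.

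Promoter windows and sequences are those of RefSeq on GRCm38.p6, and motifs were searched on both strands.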

Additional observations from a re-analysis of the deposited data

Results flagged for a closer look

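Effects that differed between 24 and 48 h at P21, by limma's test of the difference, were the 17 called changes. They were Lalba (-3.95), Cd44 (-3.07), Tgm1 (-2.94), Tubb6 (-2.23), Hmox1 (-2.21), Ptx3 (-2.21), Hbegf (-2.21 and -2.16 on its 2 probe sets), S1pr3 (-2.13), Hspb1 (-2.05 and -1.52), Fcgr2b (-2.03), Tm4sf1 (-1.69), Clcf1 (-1.67), Lpl (-1.52), Mapk13 (1.4) and Csf1r (0.98).

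The change between the days also differed between the ages for Lalba (-3.55) and Tgm1 (-2.84), by the test of that difference. Groups of 3 arrays are too small for a test of single outlying arrays.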

How the results depend on the processing

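The called change kept its call in every alternative that gave a value for Lalba, Cd44, Tgm1 and 1 of the 2 Hbegf probe sets. Tgm1 had a value in 27 of the 28 alternatives. Lalba, Cd44 and Tgm1 passed the filter through the 24 h deafferented arrays, where they are high, so their steady calls are no independent support. Counts were of calls throughout. With only the 12 arrays, the change had 6 calls, the 24 h effect 78, the 48 h effect 23 and the control between days 471, with 6 faded, 10 persistent and 0 later. With the 22 arrays of P21, the deafferented nucleus between days had 1709, the control 631 and later 0. A filter of log2 6 on 3 arrays gave 0 for the age difference and 1 later. Array weights gave 37 (change), 356 (24 h), 109 (48 h), 4033 (deafferented), 1067 (control), 6 (age difference), 33 faded, 57 persistent and 4 later. The replicate block over all arrays gave 28 (change), 249 (24 h), 104 (48 h), 90 (P7 change, where the P7 24 h numbers do not pair the nuclei), 4 (age difference), 26 faded and 56 persistent, and over 12 arrays 307 (24 h), 109 (48 h), 64 persistent and 1 later; it cannot compare one nucleus between days. Omitting the third arrays of 12 and 48 h gave 196 (24 h), 1897 (deafferented), 559 (control), 4 (age difference) and 9 faded. The cause of these shifts was not tested.

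Leaving out 1 array or 1 pair gave 4 to 25 calls for the change, 47 to 133 at 24 h, 14 to 54 at 48 h, 159 to 1016 for the deafferented nucleus, 0 to 570 for the control, 2 to 3 for the age difference, 4 to 22 faded, 9 to 26 persistent and 0 to 4 later. Changes close to 0 turned sign: Gfap (-0.52 to 0.4, and 0.01 with array weights), Cd68 (-0.65 to 0.44), Gap43 (-0.06 to 0.49) and the 48 h effect of Ttr (-0.14 to 0.11, and -0.02 with array weights). Of 1812 values for named genes, 1588 kept direction and call, 180 lost and 24 gained a call, and 20 turned sign.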
